A study of Cricetulus griseus with 4 samples.

Results

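A selective inhibitor of sterol regulatory element-binding proteins (SREBPs) was set against its DMSO vehicle in CHO-K1 cells, an established Chinese hamster ovary line, by sequencing of poly(A) RNA. The SREBP inhibitor library and the DMSO library are 2 of 4 in the study, and the others come from cells given 25-hydroxyvitamin D3 or a selective activator of the vitamin D receptor (VDR). Every culture, DMSO included, was plated for 24 hr and then treated with its compound or vehicle for 24 hr. The medium during treatment held 5% lipid-depleted serum, 50 µM compactin, which is a statin, and 50 µM lithium mevalonate. The genes described are the 11449 of 20754 that had at least 10 counts and 1 CPM (a count scaled to an effective library of 1000000) in either library. Each treatment has 1 library, so there is no replicate check, no test between treatments and no p-value, and every difference is between these libraries. The labels give neither a dose, a structure nor a code name for the compound.

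SREBPs are made as membrane proteins of the endoplasmic reticulum, where SCAP escorts them and INSIG proteins hold the complex back when sterols are plentiful. In sterol-poor cells the complex moves to the Golgi, where the site-1 and site-2 proteases free the part that enters the nucleus and switches on genes of sterol and fatty acid synthesis and lipoprotein uptake. A statin in lipid-poor serum is a standard way to hold this pathway at high activity in cultured cells, and every culture here was kept in such a medium.

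The SREBP inhibitor library held 23286632 counts and the DMSO library 21353277, so 1 CPM stood for 23.2 counts with the inhibitor and 21.7 in DMSO. Most but not all markers known of fibroblast-like cells were measured: the vimentin gene Vim had 1430 CPM with the inhibitor and 1481 CPM in DMSO. The fibronectin gene Fn1 had 636 CPM with the inhibitor and 557 CPM in DMSO. Of 10 such markers 7 were measured, and 3 were under 1 CPM in both libraries. Of the 7 measured, 6 lay below DMSO, 1 of them past the 2-fold limit set out below, with a median log2 difference of -0.47. Fn1 was the single one above DMSO. The summed level of all 10 was 3897 CPM with the inhibitor and 5110 CPM in DMSO, and Thy1 had 0 counts in all 4 libraries. Of 24 markers of other lineages with a row, 18 were under 1 CPM in both libraries and 8 had 0 counts in all 4, the ovarian genes Cyp19a1 and Fshr among them. A count of 0 allows up to 0.129 CPM with the inhibitor and 0.138 CPM in DMSO. The summed level of those 24 was 13.3 CPM with the inhibitor and 23.4 CPM in DMSO, and Star, a steroidogenic cholesterol carrier, had 3.45 CPM with the inhibitor and 9.72 CPM in DMSO. The mRNAs encoded by the mitochondrial genome took 5.25% of counts with the inhibitor and 6.81% in DMSO. The part of these shifts in the differences below was not tested. In RNA from whole cultures, fewer cells of a type and less RNA per cell cannot be told apart.

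Differences are given as log2(CPM + 1), inhibitor minus DMSO, and a gene is past the 2-fold limit when this reaches 1 in size. By that rule 223 genes were higher with the inhibitor (1.95% of those tested) and 160 were lower (1.40%), together 3.35%. These shares are the ones to set beside each list count below. In a short list, 0 or 1 member past the limit is near them and is no result about that list. At a 1.5-fold limit there were 908 higher (7.93%) and 710 lower (6.20%). The median difference was 0.01, the middle 90% of genes lay between -0.64 and 0.71, and 80.8% lay within 0.5 of 0. The balance depends on the scale. With a pseudocount of 0.1 in place of 1 there were 274 higher and 307 lower, and on the authors' FPKM 214 higher and 100 lower, which takes the higher share of those past the limit to 68.2%, against 58.2% on CPM. Past a 4-fold difference were 13 higher genes (0.114%) and 11 lower genes (0.0961%). The 223 higher genes summed to 27955 CPM with the inhibitor and 10966 CPM in DMSO, and the 160 lower genes to 10541 CPM with the inhibitor and 28657 CPM in DMSO. List members closest to the limit were Pdk1 at 1.01 and Ndrg1 at -1.004, both past it. Cebpg and Actg1 at 0.98 and Fasn at -0.99 were inside the limit, which here means not past it. At the 1 CPM minimum, 69 genes whose higher level was 1 to 1.1 CPM were tested and 79 at 0.9 to 1 CPM were not.

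**Figure D1:**
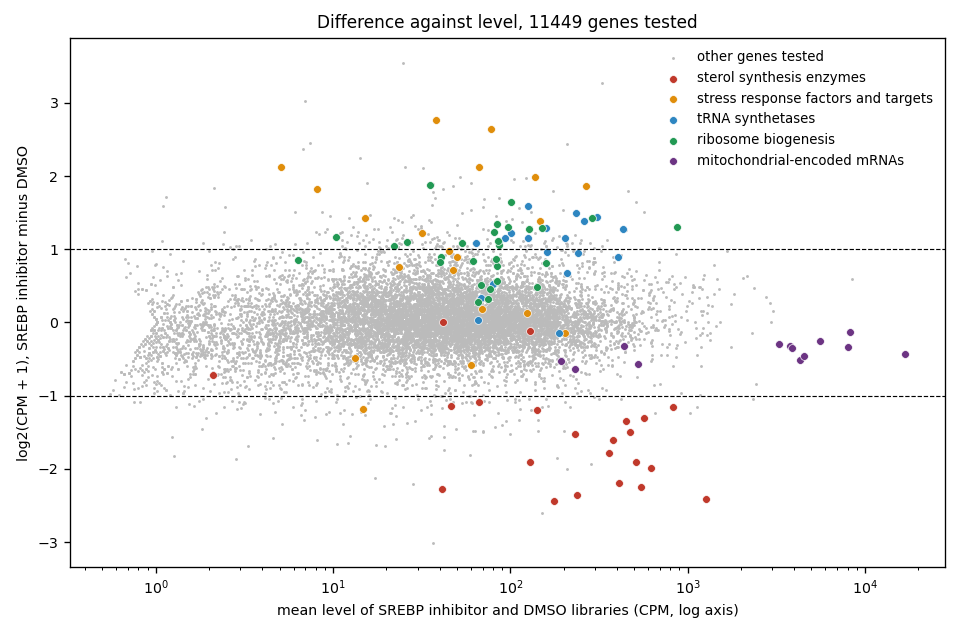
Difference in log2(CPM + 1), SREBP inhibitor minus DMSO, against the mean CPM of both libraries (log axis) for the 11449 genes tested, with dashed lines at the 2-fold limit. Sterol synthesis enzymes (red) lie between -2.44 and 0.01, tRNA synthetases (blue) between -0.14 and 1.59, and ribosome biogenesis genes (green) between 0.28 and 1.88. The mitochondrial-encoded mRNAs (purple) are the most abundant group drawn and lie between -0.63 and -0.13.

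The mevalonate pathway, which turns acetyl-CoA into the isoprenoid building blocks of sterols, was lower with the inhibitor at nearly every step. Of 9 enzymes, all measured, 8 were past the limit on the lower side and 0 on the higher side, with a median difference of -1.61 beside 0.01 for all genes tested. Hmgcs1, the HMG-CoA synthase, had 404 CPM with the inhibitor and 2147 CPM in DMSO. That is 5.32-fold lower, with a 95% exact Clopper-Pearson interval of 5.20 to 5.44. This interval, like the others printed here, covers counting error only and treats reads as independent molecules. Mvd, the mevalonate diphosphate decarboxylase, had 76.4 CPM with the inhibitor and 397 CPM in DMSO (5.20-fold lower, 4.94 to 5.47). The isomerase gene Idi1 stood at 189 CPM with the inhibitor and 904 CPM in DMSO (4.78-fold, 4.63 to 4.94). These 3 genes and the acetoacetyl-CoA thiolase gene Acat2, with 250 CPM with the inhibitor and 995 CPM in DMSO, had the widest gaps in the pathway.

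The remaining enzymes of the pathway had smaller gaps. The farnesyl diphosphate synthase gene Fdps had 188 CPM with the inhibitor and 574 CPM in DMSO. The kinases of the pathway were nearest to the limit among the 8. Mvk had 42.4 CPM with the inhibitor and 90.7 CPM in DMSO, 2.14-fold lower (1.98 to 2.31). Pmvk, the next kinase, had 28.3 CPM with the inhibitor and 63.8 CPM in DMSO. Ggps1, which makes geranylgeranyl diphosphate for protein prenylation and dolichol rather than for sterols, was level in both libraries, with 41.8 CPM with the inhibitor and 41.6 CPM in DMSO (1.01-fold, 0.918 to 1.10).

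From squalene to cholesterol, 11 of 13 enzymes were past the limit on the lower side and 0 on the higher, all 13 differences were below 0 (48.6% of all genes tested were), and the median was -1.53. Ebp, the sterol isomerase, had the widest gap of the 22 enzymes in both lists, with 54.2 CPM with the inhibitor and 299 CPM in DMSO (5.52-fold lower, 5.20 to 5.87). Hsd17b7, the ketosterol reductase, had 13.6 CPM with the inhibitor and 69.3 CPM in DMSO. Lss, the lanosterol synthase, had 147 CPM with the inhibitor and 677 CPM in DMSO. The other late enzymes lay closer together. Nsdhl had 54.3 CPM with the inhibitor and 205 CPM in DMSO. The desaturase gene Sc5d had 215 CPM with the inhibitor and 809 CPM in DMSO. The sterol reductase gene Dhcr7 had 119 CPM with the inhibitor and 347 CPM in DMSO. The methylsterol oxidase gene Msmo1 had 246 CPM with the inhibitor and 696 CPM in DMSO. In each of them the DMSO level was the higher.

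Fdft1, Sqle and Cyp51a1, early in this branch, had smaller gaps. Fdft1, the squalene synthase, had 86.1 CPM with the inhibitor and 197 CPM in DMSO, 2.29-fold lower (2.17 to 2.42). Sqle, the squalene epoxidase and a rate-controlling step, had 329 CPM with the inhibitor and 812 CPM in DMSO, 2.47-fold lower (2.41 to 2.54). The lanosterol demethylase gene Cyp51a1 had 512 CPM with the inhibitor and 1145 CPM in DMSO, 2.24-fold lower (2.19 to 2.29). Of the alternative sterol reductases that act next, neither passed the limit. Lbr, also a lamin receptor of the nuclear envelope, had 123 CPM with the inhibitor and 134 CPM in DMSO. Tm7sf2 had 1.34 CPM with the inhibitor and 2.86 CPM in DMSO, a ratio of 2.14 (1.37 to 3.41) that the added 1 CPM brings to a difference of -0.72.

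Summed over the 22 enzymes, the level was 3536 CPM with the inhibitor, 1821 CPM with 25-hydroxyvitamin D3, 10880 CPM with the VDR activator and 11815 CPM in DMSO. As a share of all counts this was 0.352% with the inhibitor (0.350 to 0.355) and 1.20% in DMSO (1.20 to 1.21), and the summed CPM was 3.34-fold lower with the inhibitor. The median difference from DMSO over these enzymes was -1.57 for the inhibitor, -2.27 for 25-hydroxyvitamin D3 and -0.10 for the VDR activator, and the 3 comparisons share the DMSO library. Per transcript length, Sqle was the most abundant of the 22 in both libraries, with 280 FPKM with the inhibitor and 680 FPKM in DMSO. Hmgcs1 came next in DMSO at 577 FPKM, but at 111 FPKM with the inhibitor it stood below Cyp51a1 at 170, Fdps at 123, Msmo1 at 122 and Acat2 at 114 FPKM. Rows described as relatives of Acat2 (LOC103163371, 4.57 CPM with the inhibitor and 16.5 CPM in DMSO) and of Nsdhl (LOC100768776, 25.7 CPM with the inhibitor, 92.4 CPM in DMSO) could share reads with those genes, so the levels of Acat2 and Nsdhl are uncertain.

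**Figure D2:**
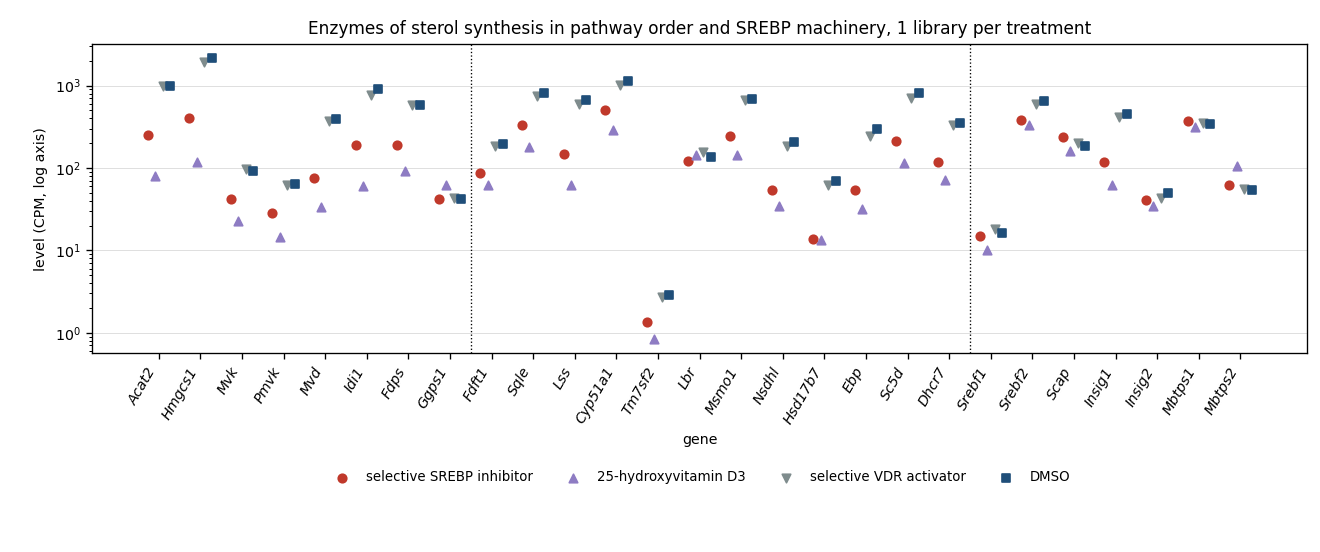
CPM (log axis) of sterol enzymes in pathway order and of the SREBP machinery, 1 point per library. From the left within each gene come the SREBP inhibitor (red circles), 25-hydroxyvitamin D3, the VDR activator and DMSO (blue squares). The inhibitor point is below the DMSO point for every enzyme drawn but Ggps1, which is level.

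Among 7 genes of the SREBP system itself, only the sterol-responsive retention factor Insig1 was past the limit. It had 118 CPM with the inhibitor and 452 CPM in DMSO, 3.84-fold lower (3.68 to 4.01). Its paralog Insig2 had 40.8 CPM with the inhibitor and 50.3 CPM in DMSO. The precursor genes differed from each other: Srebf2, whose product mainly drives sterol synthesis, had 386 CPM with the inhibitor and 645 CPM in DMSO (1.67-fold lower, 1.63 to 1.72). Srebf1, which leans to fatty acid synthesis, had 14.8 CPM with the inhibitor and 16.2 CPM in DMSO (1.10-fold lower, 0.943 to 1.28). The escort gene Scap had 236 CPM with the inhibitor and 185 CPM in DMSO. The protease genes Mbtps1 (369 CPM with the inhibitor, 345 CPM in DMSO) and Mbtps2 (61.5 CPM with the inhibitor, 53.9 CPM in DMSO) were within 1.14-fold of DMSO. The median over the 7 genes was -0.13.

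None of 12 genes of sterol-regulated protein breakdown in the endoplasmic reticulum passed the limit, and their median was 0.03. The furthest were the erlins, which form a complex in the endoplasmic reticulum membrane, and they lay on opposite sides. Erlin1 had 113 CPM with the inhibitor and 61.2 CPM in DMSO (1.85-fold higher, 1.73 to 1.98). Erlin2 had 92.6 CPM with the inhibitor and 128 CPM in DMSO (1.39-fold lower, 1.31 to 1.47).

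Genes of cholesterol uptake and transport lay on both sides but mostly below DMSO. Of 20 measured, 15 had a difference below 0 and 5 above. Past the limit were 4 on the lower side and 1 on the higher, and the median was -0.13. Stard4, a soluble sterol carrier, had 36.5 CPM with the inhibitor and 104 CPM in DMSO, 2.84-fold lower (2.63 to 3.08). Also lower were Scarb1, the HDL receptor gene, with 195 CPM with the inhibitor and 398 CPM in DMSO, and Tmem97, which encodes the sigma-2 receptor and binds the lysosomal cholesterol transporter NPC1, with 12.2 CPM with the inhibitor and 29.9 CPM in DMSO. Scarb1 was inside the limit on the authors' FPKM, at -0.99. Soat1 was the higher member. It encodes the enzyme that esterifies cholesterol for storage, and had 153 CPM with the inhibitor and 73.4 CPM in DMSO (2.08-fold higher, 1.96 to 2.21). The lysosomal members stood on both sides: the acid lipase gene Lipa had 622 CPM with the inhibitor and 1217 CPM in DMSO, a difference of -0.97. The cholesterol transporter gene Npc1 had 109 CPM with the inhibitor and 72.0 CPM in DMSO.

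LXR is the nuclear receptor for oxysterols, and 2 of its 9 measured receptor and target genes were past the limit, both higher. Abca1, the exporter that loads cholesterol onto lipoproteins, had 600 CPM with the inhibitor and 61.4 CPM in DMSO (9.76-fold higher, 9.23 to 10.3), beside 644 CPM in the 25-hydroxyvitamin D3 library and 46.7 CPM in that of the VDR activator. Lpl, the lipoprotein lipase, had 778 CPM with the inhibitor, 210 CPM with 25-hydroxyvitamin D3, 131 CPM with the VDR activator and 247 CPM in DMSO. The inhibitor library was thus the highest of the 4 for Lpl and shared the high end with 25-hydroxyvitamin D3 for Abca1. The other members were not past the limit, among them the receptor genes Nr1h3 (48.8 CPM with the inhibitor, 51.2 CPM in DMSO) and Nr1h2 (88.7 CPM with the inhibitor, 99.7 CPM in DMSO), and Mylip, a ubiquitin ligase gene, at 0.862 CPM with the inhibitor and 1.24 CPM in DMSO. The median over the 9 was 0.02. Of 8 measured oxysterol and steroid enzymes, Cyp7b1, an oxysterol hydroxylase, was past the limit at low level, with 3.83 CPM with the inhibitor and 1.06 CPM in DMSO (3.62-fold higher, 2.27 to 6.00), and the median was -0.16. Its difference of 1.23 was inside the limit on the authors' FPKM, at 0.66, and with a pseudocount of 5, at 0.54, which leaves the list with no call under either.

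Fatty acid synthesis and its NADPH supply lay lower as a group but by less than sterol synthesis. Of 26 measured genes 23 had a difference below 0, 6 were past the limit on the lower side and 1 on the higher, with a median of -0.54. Genes that supply cytosolic acetyl-CoA and acetoacetyl-CoA were among them. Acss2, the acetyl-CoA synthetase, had 42.3 CPM with the inhibitor and 261 CPM in DMSO, 6.18-fold lower (5.77 to 6.62). Aacs, the acetoacetyl-CoA synthetase, had 79.2 CPM with the inhibitor and 289 CPM in DMSO, 3.64-fold lower (3.46 to 3.84). Acly, the ATP citrate lyase, had 614 CPM with the inhibitor and 1457 CPM in DMSO, 2.37-fold lower (2.32 to 2.42). Further along, the elongase gene Elovl6 had 51.1 CPM with the inhibitor and 148 CPM in DMSO. The acyl-CoA synthetase gene Acsl3 had 75.7 CPM with the inhibitor and 212 CPM in DMSO.

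The committed and terminal enzymes of the fatty acid pathway did not go together. Acaca, the acetyl-CoA carboxylase, was level at 460 CPM with the inhibitor and 461 CPM in DMSO. Its mitochondrial relative Acacb had 19.3 CPM with the inhibitor and 11.1 CPM in DMSO. Fasn, the fatty acid synthase, had 787 CPM with the inhibitor and 1561 CPM in DMSO (1.98-fold lower, 1.95 to 2.02). The desaturase rows for Scd2 (697 CPM with the inhibitor, 1554 CPM in DMSO) and Scd1 (518 CPM with the inhibitor, 736 CPM in DMSO) belong to near-identical copies that can share reads, so their separate levels are uncertain. Idh1, an NADPH-making isocitrate dehydrogenase, had 231 CPM with the inhibitor and 428 CPM in DMSO. The single higher member was another acyl-CoA synthetase gene, Acsl5, with 346 CPM with the inhibitor, 1086 CPM with 25-hydroxyvitamin D3, 218 CPM with the VDR activator and 157 CPM in DMSO. Acsl3 and Acsl5 thus stood on opposite sides of DMSO with the inhibitor.

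Genes of triglyceride synthesis and lipid droplets had a median of 0.09, with 4 of 20 measured past the limit on the higher side and 1 on the lower. Plin2, which coats droplets, had 638 CPM with the inhibitor and 265 CPM in DMSO (2.40-fold higher, 2.33 to 2.48). Hilpda, an inhibitor of droplet lipolysis, had 16.2 CPM with the inhibitor and 6.36 CPM in DMSO. Its difference was inside the limit with a pseudocount of 5, at 0.90. Dgat2, which completes triglycerides, had 24.2 CPM with the inhibitor and 8.06 CPM in DMSO (3.00-fold higher, 2.53 to 3.57). Abhd6, a monoacylglycerol hydrolase, was close to the minimum in DMSO, with 12 CPM with the inhibitor and 1.52 CPM, or 33 counts, in DMSO. Lpin1, the phosphatidate phosphatase, was the lower member, with 17.8 CPM with the inhibitor and 54.1 CPM in DMSO (3.04-fold lower, 2.72 to 3.41). Neither Dgat1, at 34.2 CPM with the inhibitor and 42.2 CPM in DMSO, nor Lpin2 was past the limit, and Lpin2 had 137 CPM with the inhibitor and 126 CPM in DMSO. Of 17 measured phospholipid genes 1 was past the limit, the phosphatidylethanolamine synthesis gene Pcyt2, with 48.6 CPM with the inhibitor and 130 CPM in DMSO, and the median was -0.17. Sphingolipid genes (0 of 16 past the limit, median -0.03) and fatty acid oxidation genes (0 of 17, median -0.24) held no member past it. Of all genes tested 3.35% were past the limit, so these phospholipid, sphingolipid and oxidation counts lie near the common share.

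**Figure D3:**
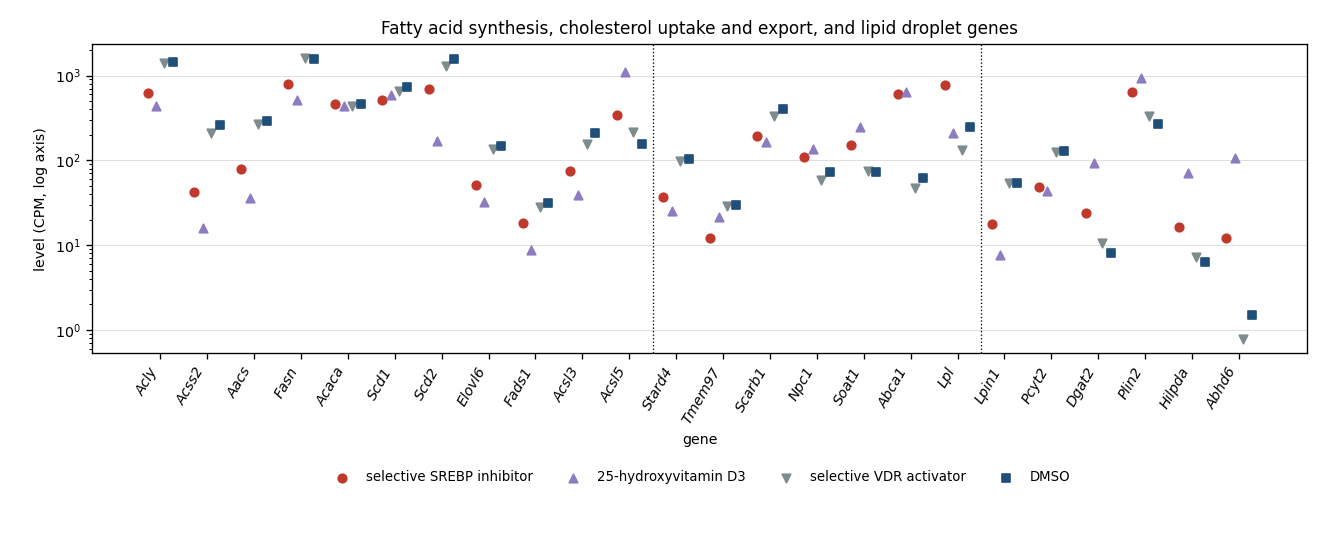
CPM (log axis) of fatty acid synthesis, cholesterol uptake and export, and lipid droplet genes, 1 point per library, drawn from the left as SREBP inhibitor, 25-hydroxyvitamin D3, VDR activator and DMSO. With the inhibitor, Acss2, Aacs, Stard4 and Lpin1 lie below DMSO, Abca1, Lpl, Plin2 and Dgat2 above it, and Acaca level with it.

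On the higher side stood many mRNAs of the integrated stress response. In that response, phosphorylation of the initiation factor eIF2 favours translation of ATF4, and ATF4 then switches on genes of amino acid supply. The libraries measure neither the phosphorylation nor the translation. Of 20 measured factors and targets, 10 were past the limit on the higher side and 1 on the lower, with a median of 1.10. Ddit3, which encodes CHOP, had 67.0 CPM with the inhibitor and 8.98 CPM in DMSO (7.46-fold higher, 6.42 to 8.70). Atf4 itself had 421 CPM with the inhibitor, 433 CPM with 25-hydroxyvitamin D3, 120 CPM with the VDR activator and 114 CPM in DMSO. Its relative Atf5 had 135 CPM with the inhibitor, 46.2 CPM with 25-hydroxyvitamin D3, 23.2 CPM with the VDR activator and 20.8 CPM in DMSO, and so was highest in the inhibitor library. Atf3 was near the minimum in DMSO, at 8.92 CPM with the inhibitor and 1.29 CPM, or 28 counts, in DMSO.

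Among targets and feedback genes of the response, the pseudokinase gene Trib3 had 222 CPM with the inhibitor and 55.2 CPM in DMSO (4.02-fold higher, 3.78 to 4.29). Asns, the asparagine synthetase, had 109 CPM with the inhibitor and 24.2 CPM in DMSO. The glutathione-degrading enzyme gene Chac1 had 13.3 CPM with the inhibitor and 3.04 CPM in DMSO. Genes that feed back on translation were also higher: Ppp1r15a, a subunit of the eIF2 phosphatase, had 44.8 CPM with the inhibitor and 18.6 CPM in DMSO. Eif4ebp1, which restrains cap-dependent translation, had 214 CPM with the inhibitor and 81.4 CPM in DMSO. Sesn2, a leucine sensor upstream of mTORC1, had 22.5 CPM with the inhibitor and 7.74 CPM in DMSO. Ddit4, also an mTORC1 inhibitor and a known ATF4 target, went the other way, with 8.70 CPM with the inhibitor and 21 CPM in DMSO (2.41-fold lower, 2.04 to 2.86). With a pseudocount of 5 its difference was -0.92, inside the limit. The 4 eIF2 kinase genes held no member past the limit, and Eif2ak3, which encodes PERK, had 47.8 CPM with the inhibitor and 72.1 CPM in DMSO. ER chaperone and ERAD genes held 0 of 23 past the limit, with a median of -0.09, and Herpud1 was furthest at 68.2 CPM with the inhibitor and 35.9 CPM in DMSO.

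Amino acid transporters included 7 of 17 measured genes past the limit on the higher side and 0 on the lower, with a median of 0.69. Slc3a2, the heavy chain shared by several exchangers, had 352 CPM with the inhibitor and 64.1 CPM in DMSO (5.49-fold higher, 5.19 to 5.82). Its light-chain partners were higher with it: the leucine exchanger gene Slc7a5 had 270 CPM with the inhibitor and 77.4 CPM in DMSO. The cystine exchanger gene Slc7a11 had 109 CPM with the inhibitor and 33.1 CPM in DMSO. The glutamine carrier gene Slc1a5 had 53.2 CPM with the inhibitor and 11.5 CPM in DMSO. The arginine carrier gene Slc7a1 had 132 CPM with the inhibitor and 39.8 CPM in DMSO. Slc1a3 and Slc1a4 completed the 7. Slc43a2, a carrier of large neutral amino acids, was furthest below DMSO, at 68.9 CPM with the inhibitor and 121 CPM in DMSO.

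Serine synthesis and one-carbon metabolism had 7 of 12 measured genes past the limit, all higher, with a median of 1.04 and a summed level of 1505 CPM with the inhibitor and 691 CPM in DMSO. The mitochondrial folate enzymes led. Mthfd2 had 196 CPM with the inhibitor and 49.1 CPM in DMSO (3.99-fold higher, 3.73 to 4.27). Shmt2 had 294 CPM with the inhibitor and 101 CPM in DMSO, and Mthfd1l had 123 CPM with the inhibitor and 44.3 CPM in DMSO. The cytosolic Mthfd1 had 178 CPM with the inhibitor and 85.1 CPM in DMSO. All 3 enzymes of serine synthesis were past the limit by a similar margin: Phgdh had 236 CPM with the inhibitor and 108 CPM in DMSO. Psat1 had 246 CPM with the inhibitor and 119 CPM in DMSO, and Psph had 56.9 CPM with the inhibitor and 26.3 CPM in DMSO. Psph was inside the limit with a pseudocount of 5, at 0.98. The thymidylate synthase gene Tyms was level at 114 CPM with the inhibitor and 118 CPM in DMSO. Of 13 enzymes of proline, asparagine, aspartate and glutamine metabolism, the branched-chain transaminase gene Bcat1 alone was past the limit, with 212 CPM with the inhibitor and 80.5 CPM in DMSO, and the median was 0.16.

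The cytosolic aminoacyl-tRNA synthetases, which charge tRNAs, were higher with few exceptions. Of 20, 19 had a difference above 0 (51.4% of all genes tested did), 12 were past the limit and the median was 1.13. Their summed level was 4864 CPM with the inhibitor and 2357 CPM in DMSO, 2.06-fold higher. Yars, for tyrosine, had 190 CPM with the inhibitor and 62.3 CPM in DMSO (3.04-fold higher, 2.86 to 3.24). Gars, for glycine, had 349 CPM with the inhibitor and 123 CPM in DMSO. Iars, for isoleucine, had 451 CPM with the inhibitor and 166 CPM in DMSO. The exceptions were Qars, for glutamine, with 178 CPM with the inhibitor and 197 CPM in DMSO, and Hars, for histidine, with 67.0 CPM with the inhibitor and 65.2 CPM in DMSO. Side by side, the median difference from the shared DMSO library was 1.13 for the inhibitor, 1.89 for 25-hydroxyvitamin D3 and 0.20 for the VDR activator for these synthetases. For the stress response genes these medians were 1.10 for the inhibitor, 1.64 for 25-hydroxyvitamin D3 and 0.05 for the VDR activator.

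**Figure D4:**
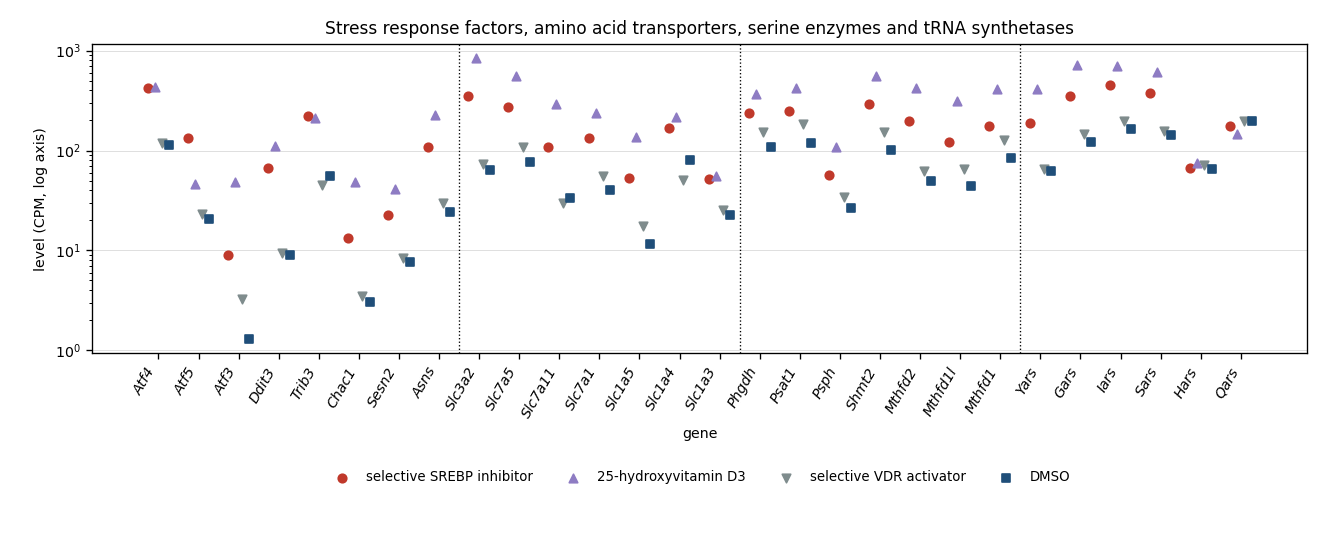
CPM (log axis) of stress response factors, amino acid transporters, serine and one-carbon enzymes and tRNA synthetases, 1 point per library, drawn from the left as SREBP inhibitor, 25-hydroxyvitamin D3, VDR activator and DMSO. The inhibitor point is above the DMSO point for every gene drawn but Qars, and is the highest of the 4 for Atf5 and Trib3.

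Genes that build ribosomes were higher as a set. All 28 ribosome biogenesis and RNA polymerase I genes had a difference above 0, 15 were past the limit, and the median was 1.05. Their summed level was 4237 CPM with the inhibitor and 1984 CPM in DMSO, 2.14-fold higher. Rrp9, a component of the U3 processing complex, had 56.3 CPM with the inhibitor and 14.6 CPM in DMSO (3.87-fold higher, 3.42 to 4.39). The core nucleolar genes Nop56 (154 CPM with the inhibitor, 48.1 CPM in DMSO), Fbl (117 CPM with the inhibitor, 55.5 CPM in DMSO) and Ncl, for nucleolin (1244 CPM with the inhibitor, 501 CPM in DMSO), were all past the limit. The row for nucleophosmin, Npm1, had 422 CPM with the inhibitor and 156 CPM in DMSO, but near-identical copies of this gene can share its reads. RNA polymerase I subunits were above DMSO without passing the limit: Polr1b had 53.3 CPM with the inhibitor and 28.1 CPM in DMSO, and Polr1a had 80.6 CPM with the inhibitor and 56.3 CPM in DMSO. All 28 cytosolic ribosomal protein genes also lay above 0, between 0.19 and 0.78, with 0 past the limit and a median of 0.48.

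Among 21 heat shock and CCT chaperonin genes, both members past the limit encode chaperones of the mitochondrial matrix. Hspa9 had 716 CPM with the inhibitor and 207 CPM in DMSO (3.47-fold higher, 3.36 to 3.59). Hspd1 had 838 CPM with the inhibitor and 294 CPM in DMSO (2.85-fold higher, 2.77 to 2.93). The median was 0.61, and CCT subunits such as Cct5 (347 CPM with the inhibitor, 193 CPM in DMSO) lay above DMSO without passing the limit. In contrast, all 13 mRNAs of the mitochondrial genome were below 0, between -0.63 and -0.13, with a median of -0.35 and 0 past the limit. Their summed level was 52637 CPM with the inhibitor, 7887 CPM with 25-hydroxyvitamin D3, 57412 CPM with the VDR activator and 66967 CPM in DMSO. COX1, a subunit of cytochrome oxidase, was the list member furthest below DMSO in CPM, with 14370 CPM with the inhibitor and 19305 CPM in DMSO. The nuclear genes of the respiratory chain had a median of 0.13, with 0 of 28 past the limit.

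Growth and signalling genes showed smaller sets on both sides. Of 24 immediate early and ERK feedback genes, 2 were higher and 3 lower, with a median of -0.31. The growth regulator Myc had 83.5 CPM with the inhibitor and 20.3 CPM in DMSO, though another row described as the same proto-oncogene (LOC100758352, 167 CPM with the inhibitor, 42.1 CPM in DMSO) can share its reads. Fosl1, an AP-1 subunit, had 58.7 CPM with the inhibitor and 15.1 CPM in DMSO. The feedback genes Dusp6, an ERK phosphatase (33.4 CPM with the inhibitor, 72.8 CPM in DMSO), and Spry1, a Sprouty inhibitor (4.05 CPM with the inhibitor, 9.40 CPM in DMSO), were lower, as was the orphan receptor gene Nr4a1 (5.90 CPM with the inhibitor, 17.0 CPM in DMSO). Spry1 was inside the limit on the authors' FPKM, at -0.82, and with a pseudocount of 5, at -0.67. In the replication list 2 of 24 were past the limit, both higher: the helicase subunit Mcm7 at 142 CPM with the inhibitor and 65.7 CPM in DMSO, and cyclin E1 gene Ccne1 at 12.1 CPM with the inhibitor and 4.65 CPM in DMSO. Ccne1 was inside the limit with a pseudocount of 5, at 0.82. The replication median was 0.37, and 0 of 22 mitosis genes passed the limit, with a median of 0.14.

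Redox genes had 3 of 20 past the limit, all higher, and a median of 0.17. They were the heme oxygenase gene Hmox1 (156 CPM with the inhibitor, 49.1 CPM in DMSO), the glutathione synthetase gene Gss (175 CPM with the inhibitor, 83.9 CPM in DMSO) and Slc7a11, described above with the transporters. The quinone reductase gene Nqo1, a standard NRF2 target, stood below DMSO at 46.1 CPM with the inhibitor and 82.8 CPM in DMSO. Of 17 p53 genes Sesn2 alone was past the limit (median -0.03), beside 3.35% of all genes tested. Pdk1, which restrains pyruvate oxidation, had 43.1 CPM with the inhibitor and 20.9 CPM in DMSO and was the higher member of 28 hypoxia and glycolysis genes. The lower member was Ndrg1, with 26.7 CPM with the inhibitor and 54.6 CPM in DMSO, and the list median was 0.19. Neither call was firm: Pdk1 was at 0.99 with median-of-ratios factors, 0.98 with equal totals, 0.93 on the authors' FPKM and 0.89 with a pseudocount of 5. Ndrg1 was at -0.96 on the authors' FPKM and -0.91 with a pseudocount of 5.

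Matrix and adhesion genes were mostly below DMSO. Of 19 measured matrix and mesenchymal genes, 2 were lower and 1 higher, with a median of -0.21. The collagen gene Col3a1 had 390 CPM with the inhibitor and 916 CPM in DMSO (2.35-fold lower, 2.29 to 2.41). The CCN family genes stood on opposite sides: Ctgf had 32.2 CPM with the inhibitor and 91.7 CPM in DMSO, and Cyr61 had 23.4 CPM with the inhibitor and 10.1 CPM in DMSO. Cyr61 was inside the limit with a pseudocount of 5, at 0.91. Among 17 adhesion and basement membrane genes, 2 were lower: the laminin gene Lama3 had 7.84 CPM with the inhibitor and 27.0 CPM in DMSO, and the matrix protease gene Adamts1 had 16 CPM with the inhibitor and 41.9 CPM in DMSO. Rnd3, an atypical small GTPase, was the only one of 10 small GTPase and Krueppel-like genes past the limit, with 57.7 CPM with the inhibitor and 16.1 CPM in DMSO (3.59-fold higher, 3.19 to 4.05).

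Secreted signals included the gene furthest above DMSO on the log2(CPM + 1) scale. Stc2, a secreted stanniocalcin glycoprotein, had 46.4 CPM with the inhibitor, 152 CPM with 25-hydroxyvitamin D3, 6.63 CPM with the VDR activator and 3.04 CPM in DMSO, 15.3-fold higher with the inhibitor (11.9 to 19.9). The activin antagonist gene Fst had 25.1 CPM with the inhibitor and 5.94 CPM in DMSO. Igfbp4, an abundant insulin-like growth factor binding protein, was lower, with 1530 CPM with the inhibitor and 3169 CPM in DMSO (2.07-fold lower, 2.04 to 2.10). Of 17 chemokine and inflammatory genes, Cxcl3 was higher at 4.18 CPM with the inhibitor and 0.737 CPM in DMSO, and Ccl2 (8.62 CPM with the inhibitor, 18.5 CPM in DMSO) and the prostaglandin E synthase gene Ptges (3.49 CPM with the inhibitor, 10.3 CPM in DMSO) were lower, all at low level. With a pseudocount of 5 all 3 were inside the limit, Cxcl3 at 0.68, Ccl2 at -0.79 and Ptges at -0.85, and on the authors' FPKM Ptges was at -0.70. Aqp1, a water channel, was the gene furthest below DMSO on that scale. It had 7.32 CPM with the inhibitor, 0.343 CPM with 25-hydroxyvitamin D3, 10.9 CPM with the VDR activator and 65.9 CPM in DMSO, 9-fold lower with the inhibitor (7.67 to 10.6).

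Of the 15 named genes furthest above DMSO on the log2(CPM + 1) scale, 3 were in no list: the teneurin gene Tenm4, the septin gene Sept3 and the matrilin gene Matn4. Tenm4 had 13.1 CPM with the inhibitor and 0.737 CPM, or 16 counts, in DMSO. Its CPM ratio of 17.8 (10.8 to 31.6) was above that of Stc2, but its difference of 3.03 was 0.87 on the authors' FPKM, inside the limit, and 1.66 with a pseudocount of 5. Sept3 had 24.2 CPM with the inhibitor and 4.33 CPM in DMSO, and Matn4 had 42.3 CPM with the inhibitor and 8.98 CPM in DMSO. The 15 furthest below DMSO were mostly the lipid enzymes described above, 10 in number, with Insig1 and Aqp1. In no list were the collagen gene Col27a1, with 9.48 CPM with the inhibitor and 47.1 CPM in DMSO, Shisa4, with 5.86 CPM with the inhibitor and 28.7 CPM in DMSO, and the retinol dehydrogenase gene Rdh11, with 83.5 CPM with the inhibitor and 337 CPM in DMSO (4.04-fold lower, 3.84 to 4.25). Of 24 lysosomal genes 1 was past the limit, beside 3.35% of all genes tested. It was the alpha-galactosidase gene Gla, with 17.0 CPM with the inhibitor and 52.7 CPM in DMSO. Gla had 38.9 CPM with 25-hydroxyvitamin D3 and 43.0 CPM with the VDR activator. The inhibitor library was the lowest of the 4 for Gla.

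Several lists held no member past the limit, which 3.35% of all genes tested passed. In lists this short that is near the share of all genes, so it is no result about them. None of 11 measured genes of the vitamin D receptor and its targets and enzymes passed the limit (median -0.09). Vdr had 38.5 CPM with the inhibitor and 48.0 CPM in DMSO. The same held for 21 proteasome subunits (median 0.16), 19 COPII and Golgi transport genes (median -0.07), 12 D cyclin and CDK inhibitor genes (median 0.04) and 16 enzymes that use isoprenoids (median 0.07). Widely expressed reference genes had 0 of 18 past it and a median of 0.19, although the actin gene Actg1, with 2218 CPM with the inhibitor and 1123 CPM in DMSO, was close. Furthest above DMSO in CPM among list members were the elongation factor gene Eef1a1, with 10132 CPM with the inhibitor and 6707 CPM in DMSO, and Actg1. Across the 45 lists, 757 of the 876 genes with a row were tested, 75 of them were past the limit on the higher side and 47 on the lower. Of all genes tested, 1.95% were past it on the higher side and 1.40% on the lower. The lists were chosen with earlier results of these data known, so this contrast is not a test.

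**Figure D5:**
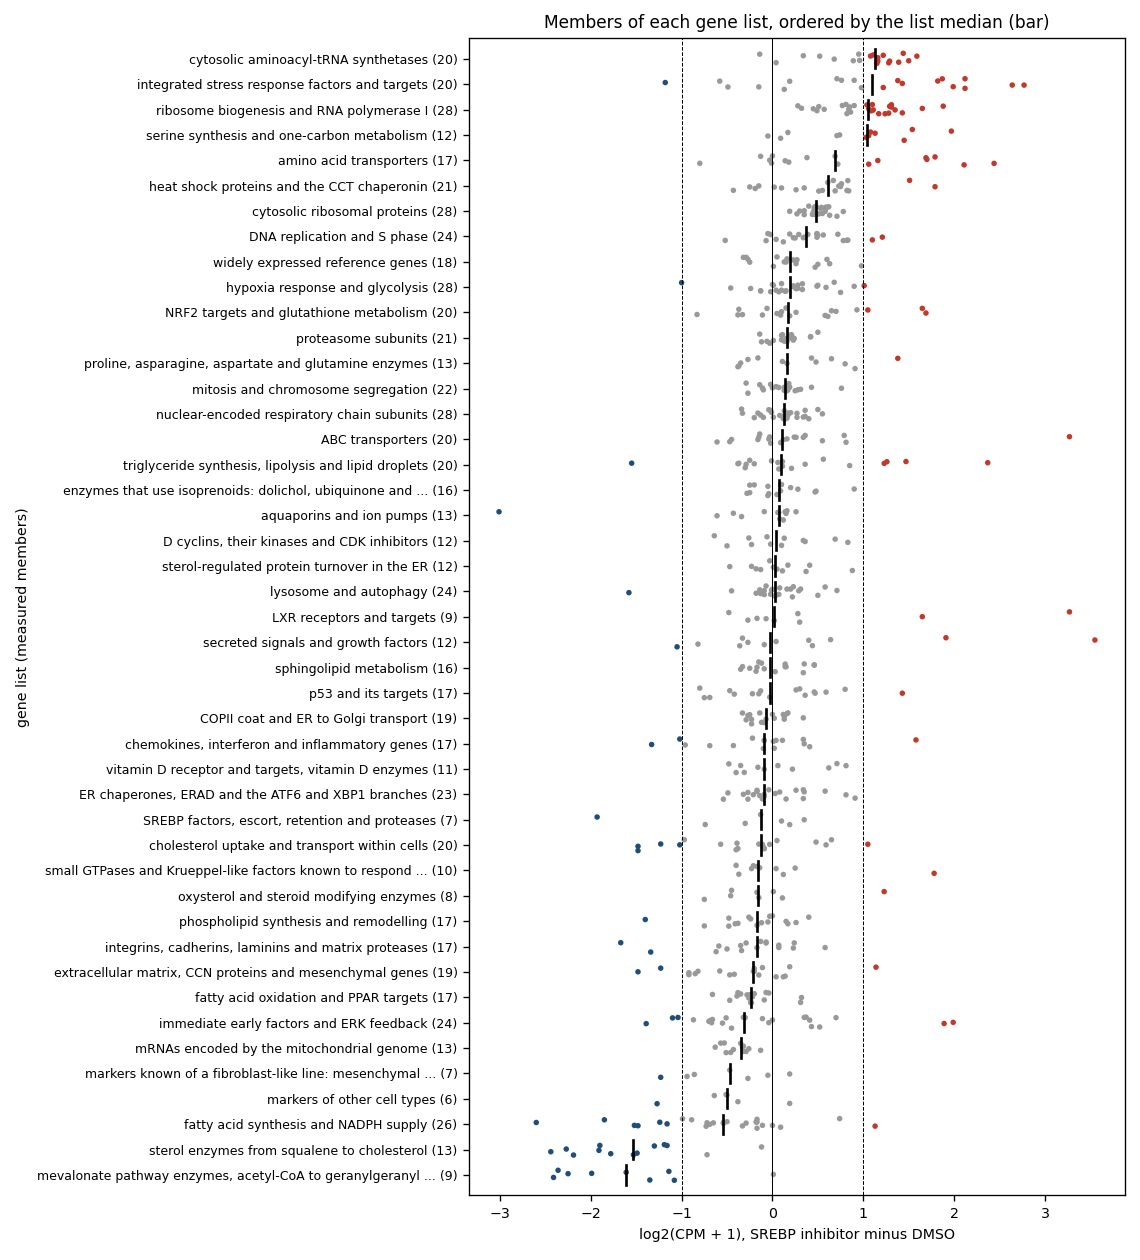
Difference in log2(CPM + 1), SREBP inhibitor minus DMSO, for each measured member of the gene lists, with the lists ordered by their median (bar) and dashed lines at the 2-fold limit. Members past the limit are red where higher and blue where lower. The tRNA synthetases (median 1.13) are at the top and the mevalonate enzymes (median -1.61) at the bottom.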

How the data were processed

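Poly(A) RNA libraries of CHO-K1 cells, 1 per treatment, were analysed from a table in which the authors deposited estimated counts and FPKM per gene. Tools in the submitters' processing notes are TopHat2, version 2, and bcl2fastq, version 1, listed with neither role nor order. How reads were counted, the build and the annotation are not given in the sources used. No coordinates are printed, and promoter motifs were not analysed here. Of 21266 rows, those of the same gene were summed (479 genes had several), which left 20754. Estimated counts, of which 15.8 to 16.8% per library were not whole, were rounded. CPM used effective library sizes from the trimmed mean of M values (edgeR 4.0.16, R 4.3.3) over all 4 libraries. Differences use log2(CPM + 1), which understates changes of low genes, and folds are ratios of CPM. FPKM was used to rank genes by level and as an alternative. For 45 list members the row was found under another name by description or gene identifier. Columns of unlisted samples numbered 0.

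Named were all sterol enzymes and SREBP machinery genes, list members past the 2-fold limit, the 15 symbol-bearing genes of at least 5 CPM furthest from DMSO in each direction, the furthest members of other lists, and the 10 list members with the largest CPM change each way. Of these, the ones the results turn on are printed, and a few are not reported here. Other members printed for contrast were chosen after their values were seen. The comparison and the lists were chosen with earlier results of these data known. Alternatives were median-of-ratios size factors, equal totals, FPKM, pseudocounts of 0.1 and 5, no minimum or 5 CPM, rows kept apart and a 1.5-fold limit.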

Additional observations from a re-analysis of the deposited data

How the results depend on the processing

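No paired analysis was possible because each treatment has 1 library, and for the same reason no library could be left out. The differences of 137 named genes were followed under the other scalings, pseudocounts and minimums tried. Among these, only Ggps1 changed sign. It was level in both libraries, with a difference of 0.01, against -0.01 with median-of-ratios factors and -0.02 with equal totals. Genes printed for contrast, such as Acaca, were not followed. Against 223 higher and 160 lower genes, a pseudocount of 5 gave 143 and 93, and a 1.5-fold limit 908 and 710. The lower count was 307 with a pseudocount of 0.1 and 100 on the authors' FPKM. A larger pseudocount shrinks the difference of low genes by construction, and a lower limit admits more genes. The cause on FPKM was not tested. Fatty acid and NADPH genes past the limit on the lower side numbered 6, against 7 with median-of-ratios factors or equal totals and 12 at 1.5-fold. The counts for mevalonate, squalene to cholesterol, stress response and amino acid transporter genes stayed within 1.5 times under every alternative. Of 137 named genes, the difference left its counting interval in 1 with median-of-ratios factors, 3 with equal totals, 21 on FPKM, 1 with a pseudocount of 0.1 and 38 with one of 5. Keeping rows apart gave 222 higher and 164 lower. Depth limits genes near 1 CPM, where 1 CPM is 23.2 counts with the inhibitor and 21.7 in DMSO, and 1 library a treatment leaves the spread between cultures unknown.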

Other observations

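The gene families and genes below were chosen after their values were seen, and are given as values only. Of those printed, only Col27a1, Col3a1, Lpl, Atf5, Gla and Tmem97 were among the 137 named genes followed under the alternatives. A larger pseudocount shrinks the difference of low genes, so calls of the others close to the limit may not hold under it. In purine and pyrimidine synthesis, 14 of 16 measured genes lay above DMSO and 3 were past the 2-fold limit, with a median difference of 0.75. Cad, the first enzyme of pyrimidine synthesis, had 240 CPM with the SREBP inhibitor and 107 CPM in DMSO. The purine enzyme gene Gart had 321 CPM with the inhibitor and 140 CPM in DMSO, and Paics had 193 CPM with the inhibitor and 82.0 CPM in DMSO. Polyamine synthesis included Srm, the spermidine synthase, with 65.8 CPM with the inhibitor and 17.9 CPM in DMSO (3.68-fold higher, 3.29 to 4.12). Its upstream enzyme gene Odc1 had 50.2 CPM with the inhibitor and 22.2 CPM in DMSO, and the median over 9 polyamine genes was 0.15.

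Genes that import proteins into mitochondria had 4 of 22 past the limit, all higher, at 1.13 to 1.24, with a median of 0.34. They were Chchd4 (13.1 CPM with the inhibitor, 4.97 CPM in DMSO), Timm8a (21.9 CPM with the inhibitor, 8.94 CPM in DMSO), Timm9 (32.2 CPM with the inhibitor, 14 CPM in DMSO) and Timm10 (27.9 CPM with the inhibitor, 12.3 CPM in DMSO). Their relatives Timm8b (31.6 CPM with the inhibitor, 31.7 CPM in DMSO) and Timm10b (23.7 CPM with the inhibitor, 18.7 CPM in DMSO) were not past it. Of the 22 genes, 16 lay above DMSO and 6 below. Among 76 mitochondrial ribosomal protein genes 67 lay above DMSO, 3 were past the limit, at 1.03 to 1.1, and the median was 0.33. Of 46 translation initiation factor genes 40 lay above DMSO and 2 were past the limit, Eif2s2 (305 CPM with the inhibitor, 143 CPM in DMSO) and Eif3b (484 CPM with the inhibitor, 221 CPM in DMSO), with a median of 0.40.

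Of 38 collagen genes with a row, 15 were measured. On the lower side, 12 of these 15 lay below DMSO and 3 were past the limit, with a median of -0.57. Beside Col27a1 and Col3a1, Col7a1 had 101 CPM with the inhibitor and 225 CPM in DMSO. The innate immune sensor genes Nod2 (19 CPM with the inhibitor, 66.0 CPM in DMSO) and Tlr3 (10.9 CPM with the inhibitor, 34.6 CPM in DMSO) were lower, out of 8 measured genes of these families with a median of -0.20. Both sodium channel genes past the limit were lower, Scn7a (8.75 CPM with the inhibitor, 30.5 CPM in DMSO) and Scn1a (19.3 CPM with the inhibitor, 40.7 CPM in DMSO), out of 5 measured. The Scn1a difference of -1.04 was close to the limit.

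The inhibitor library was the highest of the 4 for 1299 of the 11547 genes measured in any library (11.2%) and the lowest for 1300 (11.3%). In 3 genes, Lpl, Atf5 and Rasl11a, it was at least 1 above each of the others on the log2(CPM + 1) scale. Rasl11a, a RAS-like small GTPase, had 19.8 CPM with the inhibitor, 3.93 CPM with 25-hydroxyvitamin D3, 6.51 CPM with the VDR activator and 7.78 CPM in DMSO. In Gla alone it was at least 1 below each of the others on that scale. Tmem97 was also lowest with the inhibitor, and had 12.2 CPM with the inhibitor, 21.3 CPM with 25-hydroxyvitamin D3, 28.6 CPM with the VDR activator and 29.9 CPM in DMSO.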
